A study of Mus musculus with 6 samples.

Results

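The Brinp family comprises Brinp1, Brinp2 and Brinp3, the last formerly called Fam5c, and was followed here through every probe that measured it on 6 single-colour mouse arrays. Its members were taken from the rows of the authors' deposited gene table by gene identifier, and the probes of each row were then read one by one in the scanner files. This gave 3 probes of 2 genes, among 39429 probes and 23048 genes on both array designs. Brinp3 (gene identifier 215378, chromosome 1) had the probes A_51_P453158 and A_55_P1990891, and Brinp1 (56710, chromosome 4) had the probe A_55_P2124941. Brinp2 (240843, chromosome 1) had no row in that table, and 1 probe, A_51_P504833, was named through its RefSeq accession and is described beside the others. The family was chosen on the wound against skin result of Brinp3, so the differences of its members are given as descriptions, with standard errors (SE) and no test.

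The wound cells were myofibroblasts by label, sorted from wounds 7 days after injury for high GFP (SMA+++), and the skin cells were fibroblast-like cells sorted from dermis for low GFP (SMA+). Both came from transgenic SMA-GFP mice, in which the promoter of smooth muscle actin drives GFP, and both were sorted as negative for the leukocyte marker CD45 and the endothelial marker CD31. Each group had 3 arrays, 2 on array design 026655 and 1 on design 028005, the last called replicate 3 here only as a name. Neither strain nor age of the mice is given in the labels, nor whether the replicates came from separate animals, so errors and p-values cover no more than the variation among these samples, possibly technical. Reporter level and injury went together in the 2 groups and cannot be told apart. About 50 ng of RNA was amplified for each array. The design text names a human array, whereas the organism label is mouse and the probes carry mouse accessions.

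BRINP proteins take their name from induction by bone morphogenetic protein (BMP) and retinoic acid, and they are known as genes of the nervous system. They carry a membrane attack complex and perforin (MACPF) domain, the fold that complement components and perforin use to form pores, although pore formation is not their known role. BRINP proteins have been described to slow the cell cycle when they are expressed in dividing cells. In mice, loss of Brinp1 or of Brinp2 and Brinp3 alters behaviour.

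Promoter windows of the genes whose probes were higher in wound cells are shown so that the 2 genes can be compared at their starts. RefSeq (GRCm38.p6) supplied 4 windows, each from 250 bases before to 50 bases after an annotated start, and 3 are printed here 5′ to 3′; the other Brinp3 window overlaps the first. Capitals mark matches to CANNTG, the E-box consensus.
Brinp3, upstream start, chr1:146495379-146495678, plus strand: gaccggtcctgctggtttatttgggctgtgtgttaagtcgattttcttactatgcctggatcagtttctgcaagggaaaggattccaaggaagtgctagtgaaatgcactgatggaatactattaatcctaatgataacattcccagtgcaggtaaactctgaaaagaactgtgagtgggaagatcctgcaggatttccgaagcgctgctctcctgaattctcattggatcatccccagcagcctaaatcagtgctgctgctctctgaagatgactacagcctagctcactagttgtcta
Brinp3, downstream start, chr1:146497437-146497736, plus strand: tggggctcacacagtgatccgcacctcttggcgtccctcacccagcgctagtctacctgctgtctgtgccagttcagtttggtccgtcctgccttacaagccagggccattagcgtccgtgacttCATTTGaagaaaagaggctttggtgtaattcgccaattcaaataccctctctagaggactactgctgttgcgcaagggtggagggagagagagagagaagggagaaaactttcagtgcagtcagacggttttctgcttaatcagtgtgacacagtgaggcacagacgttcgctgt
Brinp1, chr4:68954348-68954647, minus strand: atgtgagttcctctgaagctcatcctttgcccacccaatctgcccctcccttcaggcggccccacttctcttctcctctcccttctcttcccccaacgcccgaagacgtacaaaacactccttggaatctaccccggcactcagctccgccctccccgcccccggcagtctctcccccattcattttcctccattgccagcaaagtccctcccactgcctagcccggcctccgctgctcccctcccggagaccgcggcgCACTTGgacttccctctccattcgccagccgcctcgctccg

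The windows differed in base composition. The Brinp1 window held 63.3% G and C with 18 CpG dinucleotides, and the downstream Brinp3 window held 52.3% with 11. The upstream Brinp3 window held 45.3% with 4 CpG dinucleotides, set beside medians of 52.7% and 7 over 32851 windows of the same length. A search on both strands for the CArG box of smooth muscle genes, the retinoic acid receptor half-site AGGTCA and the BMP-related GGCGCC found no match in any of the 4 windows. These motifs occurred in 1.63%, 16.3% and 11.9% of all windows in that order. CANNTG matched once in the downstream Brinp3 window, from position 126, and once in the Brinp1 window, from position 260. It also matched in 72.3% of all windows, and a match or its absence describes these letters only.

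Brinp3 probe A_51_P453158, which carries the accession NM_153539, was bright in wound cells and not well above background in skin cells. Its processed signal, the intensity after background subtraction by the scanner software, was 2827 ± 283, 1763 ± 176 and 2973 ± 297 in wound replicates 1, 2 and 3 (± the error given by the software). It was 2.51 ± 2.50, 3.81 ± 3.80 and 6.84 ± 2.78 in skin replicates 1, 2 and 3. The probe was well above background, by the software's own mark, on 3 of 3 wound arrays and 0 of 3 skin arrays. Below, above background refers to the same mark. A less strict mark of the software, a signal positive and significant against background, was given in skin replicate 3 and not in skin replicates 1 and 2. Even before background subtraction the median pixel values of the spot were 2962, 1917 and 2617 in wound cells, against 65, 77 and 43 in skin cells, with a local background of 24 to 32 on all arrays.

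Relative to the 75th percentile of each array, the log2 level of A_51_P453158 averaged 1.98 ± 0.50 in wound cells and -7.28 ± 1.08 in skin cells (SD, n = 3 each). The log2 difference was 9.26 (SE 0.28), and it was 10.05, 9.14 and 8.58 in pairs 1, 2 and 3, each a wound and a skin array of the same number and design, set side by side as a description. Because the skin signal was only a bound, the processed signal in wound cells was at least 191-fold higher, given the scanner software's background subtraction. For this bound each skin array was given the dimmest signal that any probe well above background had on it, or the probe's own signal where that was higher. With normexp background correction and an offset of 50, which lifts dim signals, the log2 difference was 5.09. This lies below the bound, which is 7.58 on the log2 scale, so the bound holds for the processed signal only. In these bulk samples more cells with Brinp3 RNA and more of it in each cell cannot be told apart.

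The second Brinp3 probe, A_55_P1990891, gave a much smaller difference. This probe carries the Ensembl transcript ENSMUST00000125331 and was assigned to Brinp3 only by the authors' deposited table. Its processed signal was 98.4 ± 10.1, 166 ± 16.9 and 138 ± 14.5 in wound replicates 1, 2 and 3, against 19.9 ± 3.04, 20.5 ± 3.90 and 22.9 ± 3.26 in skin replicates 1, 2 and 3. It was well above background on 3 of 3 arrays of both groups. The log2 level averaged -2.25 ± 0.59 in wound cells and -4.90 ± 0.49 in skin cells (SD, n = 3 each). The log2 difference was 2.65 (SE 0.29), or 6.26-fold, with 2.22, 3.31 and 2.41 in pairs 1, 2 and 3, and it was 1.24 with normexp.

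Brinp1, whose protein is found mainly in neurons, was well above background on wound arrays alone. Probe A_55_P2124941 (accession NM_019967) had processed signals of 149 ± 15.0, 84.5 ± 9.02 and 316 ± 32.1 in wound replicates 1, 2 and 3. In skin replicates 1, 2 and 3 the signals were 2.33 ± 2.33, 3.41 ± 3.40 and 8.87 ± 3.03. It was well above background on 3 of 3 wound arrays and 0 of 3 skin arrays. In skin cells the less strict mark was given in replicate 3 alone. The log2 level averaged -1.98 ± 1.12 in wound cells and -7.25 ± 1.36 in skin cells (SD, n = 3 each). The log2 difference was 5.27 (SE 0.23), with 5.91, 4.92 and 4.97 in pairs 1, 2 and 3, and by the same bound wound cells had at least 12.3-fold more. The difference was 1.77 with normexp, which lies below that bound (3.62 on the log2 scale).

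Brinp2 did not share this pattern. Probe A_51_P504833 (accession NM_207583) had processed signals of 10.8 ± 2.98, 11.2 ± 4.40 and 5.23 ± 5.27 in wound replicates 1, 2 and 3, against 16.7 ± 3.45, 13.3 ± 4.87 and 28.1 ± 3.68 in skin replicates 1, 2 and 3. It was well above background on 0 of 3 wound arrays and on 2 of 3 skin arrays, so it did not enter the set of tested probes. Its log2 level averaged -6.18 ± 0.43 in wound cells and -5.09 ± 0.94 in skin cells (SD, n = 3 each), and the groups overlapped. The log2 difference was -1.09 (SE 0.51), with -0.71, 0.04 and -2.61 in pairs 1, 2 and 3. Most of it came from the pair on design 028005, and it was -0.33 on design 026655 alone and -0.17 with normexp.

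**Figure D1:**
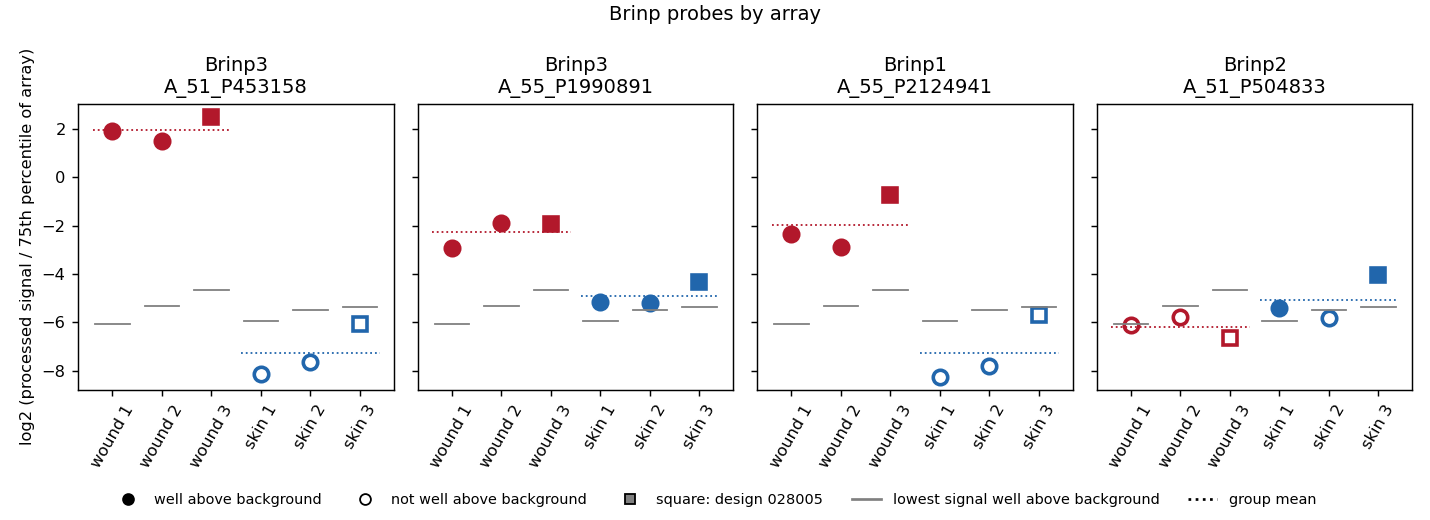
Log2 processed signal over the 75th percentile of the array for the 4 Brinp probes on 3 wound arrays (left, red) and 3 skin arrays (right, blue); filled symbols were well above background, squares are design 028005, grey bars mark the lowest signal well above background on that array and dotted lines the group means. Brinp3 A_51_P453158 and Brinp1 lie above the grey bars in wound cells and below them in skin cells, Brinp3 A_55_P1990891 is measured in both groups, and the groups overlap for Brinp2.

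Across the whole array, wound and skin cells differed widely. Probes were tested if they were well above background on 3 of 3 arrays in wound cells, in skin cells or in both. Of 25791 such probes limma called 7429 (28.8%) at a Benjamini-Hochberg adjusted p under 0.05. Of all tested probes 15.2% were called higher and 13.6% lower in wound cells, and the median log2 difference was 0.02. The probes well above background numbered 63.2% to 70.4% on wound arrays and 64.3% to 71.9% on skin arrays, and no array had a saturated spot (0 on each).

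By the fitted log2 difference, Brinp3 A_51_P453158 held rank 1 of the 25791 tested probes, Brinp1 A_55_P2124941 rank 46 and Brinp3 A_55_P1990891 rank 491. The order depended on the background treatment, because the skin signals of the first 2 of these probes were not well above background. With normexp their ranks were 15, 493 and 978, and the probes of H19, Dlk1 and Mmp10 described below then had larger differences than Brinp3. The pattern of A_51_P453158 and of Brinp1, well above background on 3 of 3 wound arrays and 0 of 3 skin arrays, was shared by 192 tested probes (0.744%), and the opposite pattern was held by 374. These ranks and counts describe the family and do not test it, since Brinp3 was picked from the same difference.

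The 2 Brinp3 probes went the same way, and their fitted log2 differences lay 6.61 apart. This size is uncertain, since A_51_P453158 was not well above background in skin cells: with that probe at its bound the gap was 4.93, and with normexp it was 3.85. The fitted gap between them was 7.83, 5.84 and 6.17 in pairs 1, 2 and 3, and so was present on both array designs. Among 4747 genes with 2 or more tested probes, the median range between the probes of a gene was 0.27 and the 90th percentile was 1.07. A fitted range of at least 6.61 was found for 2 of these genes (0.0421%), Brinp3 included. A fitted range of at least 4.93 was found for 7, but only the Brinp3 gap was bounded and not the ranges of the other genes. With normexp, where the median range was 0.22, 8 of the 4747 genes had a range of at least 3.85. What the probes detect in the transcripts of the gene was not tested, as probe sequences and positions were not used here.

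**Figure D2:**
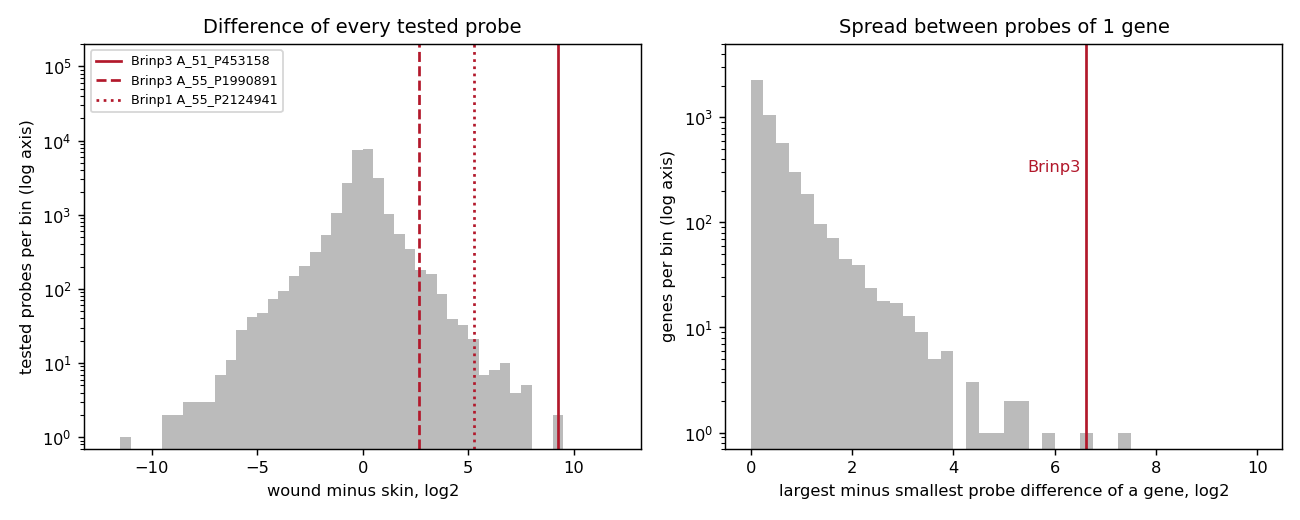
Left, wound minus skin log2 difference of the 25791 tested probes, with the 3 tested Brinp probes as red lines; right, largest minus smallest log2 difference among the tested probes of each of 4747 genes, with Brinp3 as a red line. Count axes are logarithmic. Brinp3 A_51_P453158 stands at 9.26 on the left and the Brinp3 range at 6.61 on the right, beside a median of 0.27. Both are fitted values that rest on skin signals not well above background, and with normexp they were 5.09 and 3.85.

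The authors' deposited table gives 1 row per gene and merges the 2 array designs. Its levels in replicate 3 of both groups were centred per gene, so they carry no more than the difference between the groups. For Brinp3 it holds 2.76, 3.03 and 0.97 in wound replicates 1, 2 and 3, against -3.29, -3.10 and -1.45 in skin replicates 1, 2 and 3. The differences in the authors' deposited table were thus 6.05, 6.13 and 2.42 in pairs 1, 2 and 3, with pair 3 well below pairs 1 and 2. For Brinp1 the authors' deposited table holds 2.71, 2.14 and 2.25 in wound replicates 1, 2 and 3, against -3.11, -2.69 and -2.73 in skin replicates 1, 2 and 3. Its differences of 5.82, 4.83 and 4.98 lay close to those of the single probe in the scanner files.

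The low value of Brinp3 in pair 3 was traced to the probes behind it. On design 026655 the table's Brinp3 differences equalled the mean of both probes, 6.05 in pair 1 and 6.13 in pair 2, after each pair was aligned on genes with a single probe. On design 028005 the table's 2.42 equalled the value of A_55_P1990891 alone, where the mean of both probes would have been 5.50 and A_51_P453158 alone gave 8.59. The mean of both probes over all arrays was 5.95, against 4.87 in the authors' deposited table.

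Brinp3 was not the only gene with this feature. Genes with a single probe matched the table within 0.05 on the log2 scale for 99.8% to 99.9% of 12701 genes. Among genes with 2 probes that differed by more than 0.2, the table matched the mean of both for 3450 of 3453 in pair 1 and 3576 of 3580 in pair 2, both on design 026655. In pair 3, on design 028005, it matched the mean for 2657 of 3529 genes (75.3%) and a single probe for 867 (24.6%). The probe left out was well above background on both arrays of that design for 0 of these 867 genes, on 1 array for 213 and on neither for 654. Probes that were averaged were well above background on both arrays in 4712 of 5314 cases (88.7%). Brinp3 A_51_P453158, well above background in wound replicate 3 and not in skin replicate 3, is 1 of 91 left-out probes detected in the wound array alone, and 122 were detected in the skin array alone. For 86 of those 91, the table's difference was below the mean of both probes, as for Brinp3. Over all 867 genes, the table's difference was smaller in size than the mean of both probes for 441 (50.9%). Which rule the authors' software applied is unknown here.

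**Figure D3:**
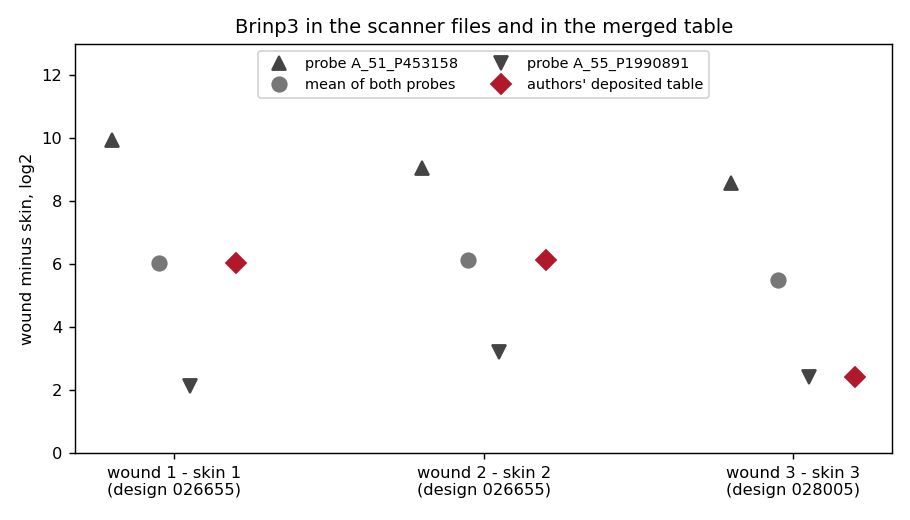
Brinp3 wound minus skin log2 difference in each of 3 pairs of arrays, for each probe and their mean in the scanner files (grey) and in the authors' deposited table (red diamonds). The table lies on the mean of both probes in pairs 1 and 2 (6.05 and 6.13) and on probe A_55_P1990891 alone in pair 3 (2.42).

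The genes whose pattern over the 6 arrays was most like that of Brinp3 A_51_P453158 were Mmp10, Dlk1, Cxcl3, Glipr1 and H19. Likeness was measured as the Euclidean distance between log2 values centred within each array design. Mmp10, a matrix metalloproteinase known from wounded epithelium, was nearest at a distance of 0.49. Its log2 level was 2.04, 2.11 and 2.08 in wound replicates 1, 2 and 3, against -7.97, -7.45 and -6.07 in skin replicates 1, 2 and 3, where it was above background on 0 of 3 arrays. By the bound on the processed signal, wound cells had at least 204-fold more, with a fitted log2 difference of 9.24 and 5.16 with normexp. The next distances were 2.04 for Dlk1, a membrane protein of the Notch ligand family, and 2.21 for Cxcl3, a neutrophil chemokine, with log2 differences of 7.98 and 7.51, measured on 2 and 1 of 3 skin arrays. Glipr1, of the cysteine-rich secretory protein superfamily, and the imprinted noncoding RNA H19 followed at 2.28 and 2.37, with differences of 7.51 and 7.73, measured on 1 and 3 of 3 skin arrays. With 6 arrays in 2 groups, this measure mostly ranks genes by the size of their difference.

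Genes next to the Brinp genes on the chromosome were read in the same way, the 3 nearest protein-coding genes on each side. They were taken by the order of their starts with no limit on distance, and a shared control of neighbours was not tested. Beside Brinp3, the 2 tested neighbours were both called higher in wound cells, against 15.2% of all tested probes, and both act in prostaglandin synthesis. Ptgs2, the inducible cyclooxygenase, had log2 levels of 3.96, 4.27 and 5.04 in wound replicates 1, 2 and 3, against 1.21, 1.38 and 2.50 in skin replicates 1, 2 and 3. Its log2 difference was 2.73 (SE 0.17, limma adjusted p = 0.000173). Pla2g4a, the cytosolic phospholipase A2 that releases arachidonic acid, was higher by 1.41 (SE 0.17, limma adjusted p = 0.00149). The G-protein signalling regulators Rgs1, Rgs18 and Rgs21 and the phototransduction gene Pdc were well above background on at most 1 array of a group and were not tested.

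The 5 measured neighbours of Brinp1 were Astn2, Trim32, Tlr4, Cdk5rap2 and Megf9. None of them passed the limma test, against 28.8% of all tested probes called in either direction. Their limma adjusted p ran from 0.0642 to 0.848 (2 at an unadjusted p under 0.05). The sixth neighbour, Gm11232, had no named probe. Beside Brinp2, the Ras GTPase activator Rasal2 rose by 1.29 (SE 0.21, limma adjusted p = 0.00505). Pappa2, a protease of insulin-like growth factor binding proteins, fell by 5.59 on the log2 scale (SE 0.38, limma adjusted p = 0.00021). The other 4 neighbours of Brinp2, Cryzl2, Sec16b, Astn1 and Cop1, did not pass, with log2 differences between -0.64 and -0.06. Of the 6 tested neighbours of Brinp2, 16.7% rose and 16.7% fell, against 15.2% and 13.6% over all tested probes.

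Retinoic acid genes, 1 of the pathways that gave the family its name, moved in both directions. Of 24 genes for retinol transport, synthesis, breakdown and reception, 21 were tested, of which 7 rose, 7 fell and 7 did not pass the test. That is 33.3% in each direction, against 15.2% higher and 13.6% lower over all tested probes. Their median log2 difference was -0.08, against 0.02 over all tested probes. Stra6, the membrane receptor for retinol uptake, had log2 levels of 0.41, 1.47 and 2.02 in wound replicates 1, 2 and 3, against -5.71, -5.45 and -3.77 in skin replicates 1, 2 and 3, where 2 of 3 arrays measured it. Its difference was 6.27 (SE 0.32, limma adjusted p = 0.000103). Aldh1a3, an enzyme that makes retinoic acid, rose by 2.75 (SE 0.15, limma adjusted p = 0.000122).

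On the other side, Cyp26b1, which breaks retinoic acid down, had log2 levels of 2.09, 2.63 and 4.47 in wound replicates 1, 2 and 3, against 7.13, 6.89 and 8.43 in skin replicates 1, 2 and 3. It fell by 4.43 (SE 0.24, limma adjusted p = 0.000115). The retinoic acid responsive Rarres1 and the synthesis enzyme Aldh1a1 fell by 3.77 and 3.49 (limma adjusted p = 0.000578 and 0.000296). Aldh1a1 and Aldh1a3, the synthesis enzymes named here, therefore went opposite ways, and the other synthesis enzymes of the list are not described.

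BMP genes, the other pathway in the family's name, gave calls in both directions. Of 33 genes 32 were tested, of which 5 rose, 9 fell and 18 did not pass, with a median log2 difference of -0.16. The share that rose, 15.6%, was close to the 15.2% over all tested probes, and 28.1% fell, against 13.6% over all. Among ligands, Bmp4 had log2 levels of -2.84, -3.20 and 0.05 in wound replicates 1, 2 and 3, against 4.46, 4.12 and 5.54 in skin replicates 1, 2 and 3. It fell by 6.70 (SE 0.39, limma adjusted p = 0.000135), and Bmp7 fell by 5.34 (SE 0.40, adjusted p = 0.000311). Bmp3 fell by 1.30 (limma adjusted p = 0.0206), and the ligand Bmp5 rose by 2.21 (adjusted p = 0.000326), measured on 2 of 3 skin arrays. The receptor Bmpr1b rose by 6.03 (SE 0.42, limma adjusted p = 0.000222), with 1 of 3 skin arrays above background. Bmper, a secreted BMP-binding protein, rose by 3.36 (SE 0.24, limma adjusted p = 0.000247). The count of BMP genes that fell was 5 without skin replicate 2 and 5 with no filter on dim probes.

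Of 9 other genes with a MACPF domain 6 were tested. Mpeg1 (perforin-2 of macrophages) fell by 0.71 (SE 0.18, limma adjusted p = 0.0285), and the other 5 did not pass the test. The share that fell, 16.7%, was close to the 13.6% over all tested probes. The Mpeg1 call was lost with normexp, with no filter on dim probes, and without either replicate 1 or 3 of a group. Astn1 and Astn2, the astrotactins of migrating neurons, had log2 differences of -0.39 and 0.65 (limma adjusted p = 0.601 and 0.233). The complement genes C8a and C9 were not above background on any array.

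**Figure D4:**
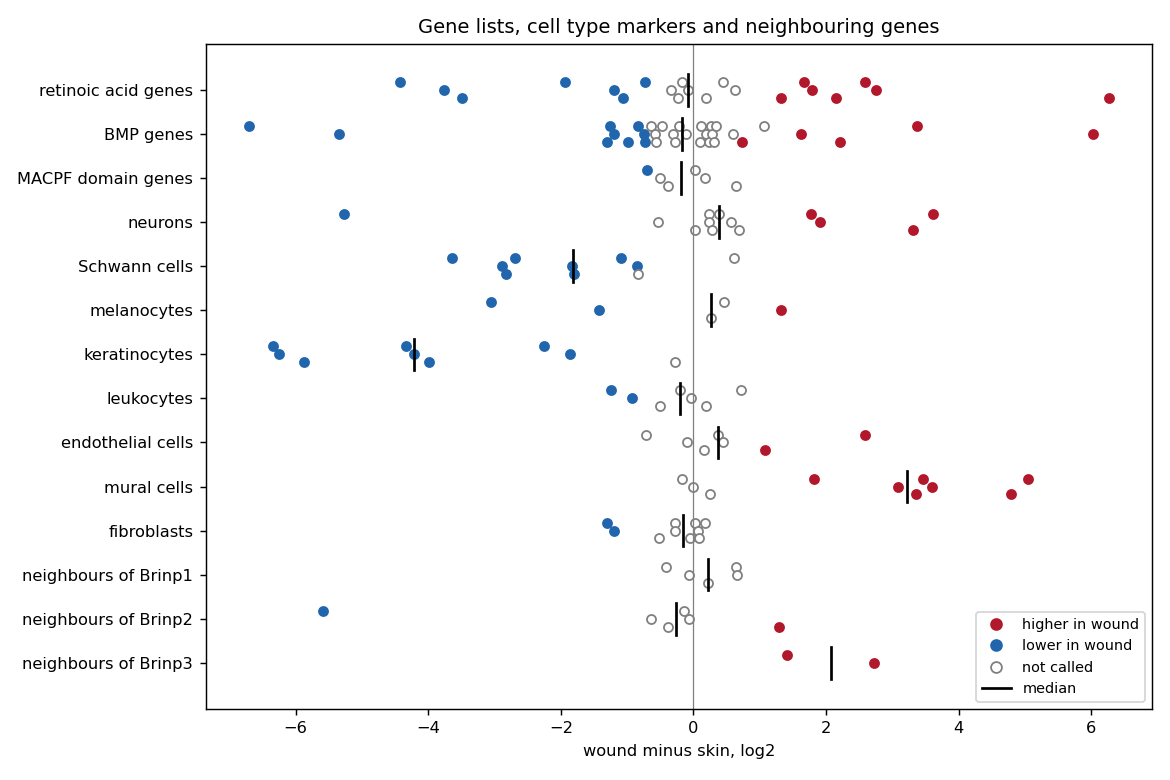
Wound minus skin log2 difference of the tested genes of each list, marker set and set of neighbours (1 point a gene; red, higher in wound cells; blue, lower; open, not called at a limma adjusted p under 0.05; black bar, median). The retinoic acid and BMP genes spread to both sides, mural markers lie mostly to the right and Schwann cell and keratinocyte markers mostly to the left.

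Since BRINP genes are known from the nervous system, markers of nerve cells were read beside them. Of 15 neuron markers 13 were tested, 4 rose, 1 fell and 8 did not pass the limma test. The shares were 30.8% higher and 7.69% lower, against 15.2% and 13.6% over all tested probes. Nefl and Nefm, neurofilament subunits, were well above background on 3 of 3 wound arrays and 0 of 3 skin arrays, as Brinp1 and Brinp3 A_51_P453158 were. By the bound on the processed signal, Nefl and Nefm rose at least 3.47-fold and 2.52-fold. Their log2 differences with normexp were 0.79 and 0.44. Uchl1, measured on 1 of 3 skin arrays, and Prph rose by 3.31 and 1.77 on the log2 scale, and Stmn2 fell by 5.26. Nefl, Nefm and Uchl1 entered the tested set only through wound cells, and Stmn2 only through skin cells. The shares above therefore rest largely on genes admitted through the group where they were high. The neuronal nuclear protein Rbfox3 was above background on 1 of 3 wound arrays and 0 of 3 skin arrays, and the synaptic Syt1 on 1 and 2. The summed level of the neuron list ranged from 28.5 to 99.5 times the 75th percentile of the array in wound cells, and from 25.7 to 97.3 in skin cells. Without Snap25, its brightest probe, the sums were 13.8 to 27.2 in wound cells and 12.5 to 20.9 in skin cells. Most of what remained on each array was Ncam1, which did not pass the limma test, so these sums say little about the other markers.

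Schwann cell markers were lower in wound cells. Of 12 markers 10 were tested, 8 fell (80%, against 13.6% over all tested probes) and 2 did not pass. Their summed level was 9.64 to 23.6 in wound cells against 31.1 to 75.9 in skin cells. Most of that sum was Pmp22, and without it the sums were 1.60 to 4.01 in wound cells against 3.11 to 10.5 in skin cells. These ranges overlap with the array designs pooled, while within each design the wound sums lay below the skin sums. Cdh19 and Mal were well above background on 0 of 3 wound arrays. Mural cell markers rose for 7 of 10 tested genes (70%, against 15.2% over all tested probes), with a median log2 difference of 3.22. Their summed level was 88.8 to 235 in wound cells against 33.6 to 66.9 in skin cells. Keratinocyte markers fell for 8 of 9 tested genes (88.9%, against 13.6% over all tested probes). Their summed level was 4.20 to 10.1 in wound cells against 17.7 to 39.2 in skin cells.

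Markers of the cell type in the labels were present throughout. Of 10 fibroblast markers, all well above background on every array, 2 fell (20%, against 13.6% over all tested probes) and 8 did not pass. Their summed level was 1148 to 3763 in wound cells against 1332 to 4494 in skin cells. Of 7 tested leukocyte markers 2 fell, of 7 tested endothelial markers 2 rose, and of 5 tested melanocyte markers 1 rose and 2 fell. For leukocyte markers that is 28.6% lower, against 13.6% over all tested probes. For endothelial markers it is 28.6% higher, against 15.2% over all tested probes. For melanocyte markers it is 20% higher and 40% lower, against 15.2% and 13.6% over all tested probes. The gene of CD45, Ptprc, was above background on 1 of 3 wound arrays and 3 of 3 skin arrays, and the gene of CD31, Pecam1, on all arrays of both groups. The part of other cell types in the Brinp1 and Brinp3 values was not tested.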

How the data were processed

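The members, gene lists and marker lists were chosen with earlier results of these data known. Per the file headers, the authors extracted spot intensity with Feature Extraction 10.7.3.1 from designs that name build mm9; the deposited processed signal is linear, background-subtracted and not scaled between arrays. The authors' deposited gene table was made with GeneSpring 14.5, per the series' design text, and its values were taken as log2, since differences of single-probe genes matched log2 scanner differences. Its column medians were -0.28, -0.27 and -0.23 in wound replicates 1, 2 and 3 and -0.21, -0.25 and -0.25 in skin replicates 1, 2 and 3. The 75th percentile of each column was 0.00 within rounding, the 2 columns of design 028005 were centred per gene, and the centring on design 026655 stays unknown. Its levels are therefore printed for the Brinp genes only, and comparisons rest on its differences.

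Spots that were controls or had an outlier mark were dropped, and replicate spots averaged. Values were log2 processed signals from which the 75th percentile of their array was subtracted, with a pseudocount of 0. Probes were named through the authors' table (27773), otherwise through RefSeq accessions without version in a GRCm38.p6 name table. Wound was set against skin with lmFit and eBayes (limma 3.58.1, R 4.3.3) and the array design, which was also slide and scan, as a fixed term; the fit left 3 residual degrees of freedom (6.39 after moderation) and was tested on simulated data. The files hold no mean spot signal, so normexp used the median one. Genes were named by fixed rules: every Brinp probe, all neighbours, the 3 largest calls in each direction per list with the same sign on both designs, and the 5 genes most like Brinp3, except 1 gene not reported here; marker genes, C8a and C9 were named after their values were seen; a gene of several probes was read by the one with the highest mean. Python 3.11.15, pandas 2.3.3 and matplotlib 3.10.9 were used. The number of arrays limits the precision.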

Additional observations from a re-analysis of the deposited data

How the results depend on the processing

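The signs of the Brinp1 and Brinp3 differences held under each alternative run for them (normexp, another percentile, each design alone, each array left out and, for Brinp1 and the mean of both Brinp3 probes, the authors' deposited table). With normexp the differences were smaller, 5.09 for Brinp3 A_51_P453158, 1.24 for A_55_P1990891 and 1.77 for Brinp1; leaving out an array gave 9.02 to 9.60, 2.32 to 2.91 and 5.07 to 5.42 for these probes. For Brinp2, leaving out an array gave -1.43 to -0.33. Leaving out replicate 3 of either group gave the same fit as design 026655 alone, so these runs are not separate checks. The 7429 calls became 2339 with no array design term, 4960 with no filter on dim probes and 4644 to 7071 when an array was left out, the lowest without skin replicate 1. A replicate block gave 7444; the labels number only replicates 1 and 2, for which wound 1 minus wound 2 correlated with skin 1 minus skin 2 at 0.17 across probes. With no array design term, 4 retinoic acid genes fell, 3 BMP genes rose and 2 fell, and 0 other MACPF genes fell. BMP genes that rose numbered 3 among probes well above background on all 6 arrays. BMP genes that fell numbered 5 with no filter and 5 to 7 when an array was left out, and 10 with the replicate block. The single fall among other MACPF genes was not called (0) with normexp, on design 026655 alone and with no filter, and numbered 0 to 1 when an array was left out. The cause was not tested. Dim skin signals limit the fitted differences of Brinp3 A_51_P453158 and Brinp1. On the processed signal the bounds are at least 191-fold and 12.3-fold, and the normexp differences lie below them.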
